A study of Mus musculus with 4 samples.

Results

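Cells with the marker genes of type 1 conventional dendritic cells (cDC1) were taken from injured mouse spinal cord, 66 of 9528 cells at 3 days post injury (dpi) and 98 of 10879 cells at 14 dpi, which is 164 of the 28346 cells that passed the filters in the whole series. A cell was a member when it had at least 600 detected genes, at most 10% mitochondrial UMIs (unique molecular identifiers, 1 per captured RNA molecule), a UMI of Xcr1 or Clec9a, UMIs of at least 4 of the 7 genes Xcr1, Clec9a, Cadm1, Naaa, Wdfy4, Irf8 and Itgae, and none of Cd3e, Cd79a or Ccr7. The cells were thus chosen by the measured UMIs of these genes, whose levels describe the choice and support nothing else. The comparison cells were all other cells of the same library with at least 1% of their UMIs in H2-Aa, H2-Ab1 and Cd74, called other MHC class II-high cells, of which there were 752 and 769.

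The series holds 4 droplet libraries of cells sorted for CD45, a surface marker of leukocytes, from the spinal cord of C57BL/6 mice aged 3 months. The injured groups had a contusion at the lower thoracic cord, collected at 3 dpi and 14 dpi, and the 2 sham libraries came from mice with the same surgery and no contusion. The 3 dpi, the 14 dpi and 1 sham library were dissociated with actinomycin D, which blocks transcription during the preparation, and the other sham library by the standard protocol. Mice of both sexes were pooled in a library, and of the cDC1-like cells described below 19 had only male and 10 only female transcripts at 3 dpi, against 15 and 24 at 14 dpi, so that the balance of the sexes differed between these libraries. Each group is 1 library, so no test between times was possible, time and library cannot be told apart, and all intervals here are 95% intervals that cover counting error only. The deposited matrices held 10763 barcodes and 125270696 UMIs at 3 dpi and 11631 barcodes and 129935880 UMIs at 14 dpi, with medians of 9490.5 and 9483 UMIs in a passing cell. These libraries shared 36 barcodes, none of them in a member.

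Conventional dendritic cells take up antigen in tissues, carry it to lymph nodes and present it to T cells on MHC molecules. The cDC1 branch depends on the transcription factors Irf8 and Batf3, and it is known for cross-presentation, the loading of peptides from engulfed dead cells onto MHC class I for CD8 T cells. Clec9a binds actin exposed by dead cells, Xcr1 is the receptor for the chemokine Xcl1 of activated T and NK cells, and Tlr3 senses double-stranded RNA inside endosomes. In the healthy central nervous system dendritic cells are found mainly in the meninges and the choroid plexus.

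The members were not a single kind of cell. At 3 dpi 46 of the 66 members, and at 14 dpi 48 of the 98, had at least 1% of their UMIs in H2-Aa, H2-Ab1 and Cd74 and under 2% in the macrophage and microglia marker lists, and these 94 are called cDC1-like. A further 9 and 17 were high for both (median 6.51% and 7.02% of UMIs in the macrophage and microglia lists), 11 and 28 were high for macrophage and microglia genes and low for MHC class II, and 0 and 5 were low for both. The limits were set after these values were seen, so that the classes are ranges and not types. Near the limits lay 1 and 2 members within 0.5 points of the macrophage limit and 4 and 7 within 0.2 points of the MHC limit. The cDC1-like cells had a median of 10582.5 and 12540 UMIs, against 32387 and 24504 in the members high for both. Of the members high for both, 8 of 9 and 10 of 17 were among the top doublet scores of their library, against 0 of 46 and 2 of 48 cDC1-like cells. Since the deep cells weigh most in a sum, the cDC1-like cells gave 41.5% of the members' UMIs at 3 dpi. The values below are therefore those of the cDC1-like cells, with the values of all members beside the main ones, and low levels of macrophage and microglia genes in them follow from how they were chosen.

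**Figure D1:**
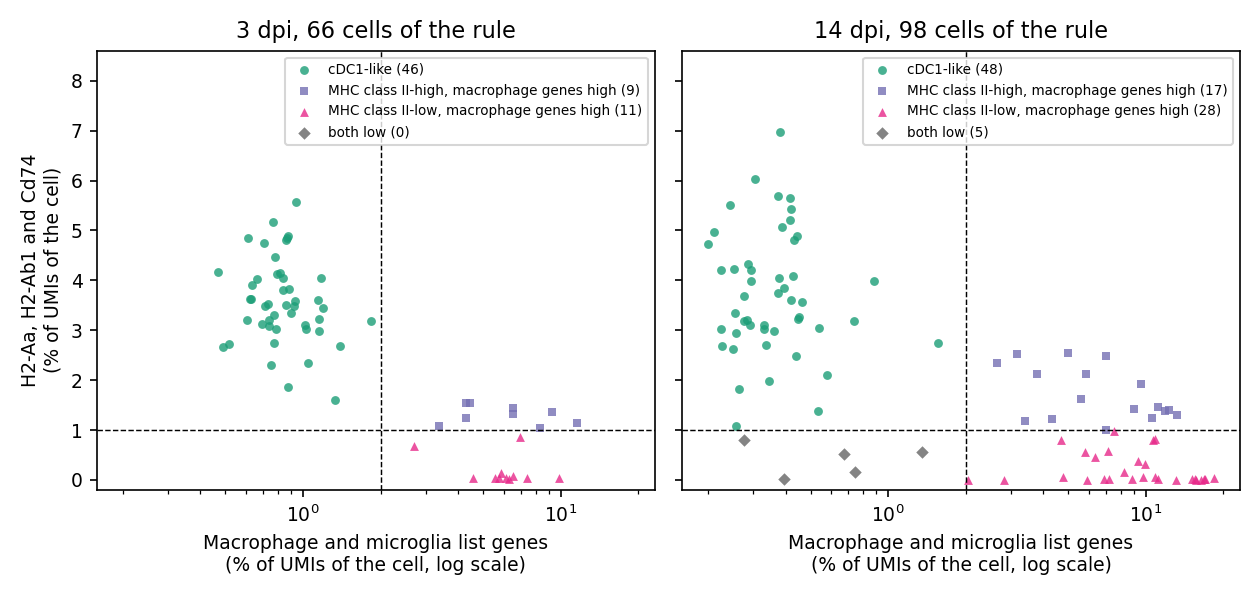
Each point is a member of the rule, at 3 dpi (left, 66 cells) and 14 dpi (right, 98 cells): the share of its UMIs in H2-Aa, H2-Ab1 and Cd74 (y, %) against its share in the macrophage and microglia marker lists (x, %, log scale). The dashed lines are the limits of 1% and 2%; the cDC1-like cells lie upper left, with MHC class II shares from 1.61% to 5.57% at 3 dpi and from 1.08% to 6.98% at 14 dpi.

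All members made up 0.693% of the passing cells at 3 dpi (exact binomial interval 0.536% to 0.880%) and 0.901% at 14 dpi (0.732% to 1.10%). For the cDC1-like cells the shares were 0.483% (0.354% to 0.643%) and 0.441% (0.325% to 0.585%), so that the higher share of all members at 14 dpi was not seen in them. Among MHC class II-high cells the cDC1-like cells were 46 of 807 at 3 dpi (5.70%, interval 4.20% to 7.53%) and 48 of 834 at 14 dpi (5.76%, interval 4.27% to 7.56%). In the sham libraries the same rule found 15 of 5736 cells with the standard protocol and 4 of 2203 with actinomycin D. Of the 15, 9 had a UMI of Prtn3 and 6 of Mpo, granule genes of myeloid progenitors and young granulocytes, and 2 were cDC1-like. Prtn3 reached 153 UMIs in a cell but was also at 2 UMIs in a cDC1-like cell, and its background share is not given here. The sham library with actinomycin D held 0 cDC1-like cells, which allows a share of up to 0.136% by a floor of 3 counts and 0.167% by the exact interval. The CD45 sort and the deposited filtering set the denominators of all these shares.

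The 7 genes of the rule had the following levels, given as CPM, the UMIs of a gene per 1000000 UMIs summed over the cells of a group. Xcr1 was at 241 CPM at 3 dpi and 259 CPM at 14 dpi in the cDC1-like cells, with a UMI in 35 of 46 and 33 of 48 cells. Clec9a was at 135 and 245 CPM, in 35 and 46 cells. Both receptors were detected together in 24 and 31 cells, Xcr1 alone in 11 and 2, and Clec9a alone in 11 and 15. Irf8, the factor on which the lineage depends, was at 1057 and 1590 CPM, and Wdfy4, a protein needed for cross-presentation of cell-bound antigen, at 585 and 472 CPM. Naaa, a lysosomal lipid hydrolase, was at 718 and 758 CPM, Itgae (the integrin CD103) at 205 and 264 CPM, and the adhesion molecule Cadm1 at 40.2 and 54.9 CPM. Just inside the threshold, the 23 and 37 members with 4 markers had median MHC class II shares of 2.69% and 0.808%, and 14 and 16 of them were cDC1-like. Just outside it, the 27 and 45 cells with 3 markers had medians of 0.192% and 0.0402%, and 3 and 8 of them lay within the limits of the cDC1-like cells. As a measure of background, Xcr1 had a UMI in 0.288% and 0.106% of microglia (cells with P2ry12 and Tmem119), where the median depth was 24116 and 11847.5 UMIs. It had a UMI in 1.73% and 1.17% of the other MHC class II-high cells. The rule moved cells with Xcr1 out of that group, so this share is no measure of background.

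Genes of the cDC1 program that the rule did not use were higher in the cDC1-like cells than in the other MHC class II-high cells of the same library. Of 26 such genes listed, 23 had at least 20 UMIs over both groups in both libraries, and 16 of these were at least 2-fold higher in both libraries and 1, Nfil3, at least 2-fold lower. For comparison, 2.90% of all 9770 genes measured were higher and 7.52% lower by this rule of size. The median log2 ratio of the list was 1.89 at 3 dpi and 2.20 at 14 dpi, against −0.05 and −0.08 over all genes. Over all members, macrophage-rich cells included, 11 of the 23 genes were higher and none lower, where 2.40% of 9973 genes were higher and 2.70% lower, and the medians of the list were 1.15 and 1.31.

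Gcsam, a signalling adaptor of germinal centre B cells, had the largest ratio of the listed genes, at 141 and 72.2 CPM in cDC1-like cells against 1.94 and 0.905 CPM in the other cells. That is a log2 ratio of 6.14 (interval 5.34 to 7.13) at 3 dpi and 6.23 (5.16 to 7.71) at 14 dpi, carried by 30 and 21 cells. Snx22, a sorting nexin of endosomes, was at 141 and 177 CPM against 6.36 and 4.52 CPM, a log2 ratio of 4.46 (3.91 to 5.04) and 5.28 (4.74 to 5.88). In both libraries these genes separated the groups by more than the counting intervals allow for. Ifi205, an interferon-inducible DNA sensor of the AIM2 family, was seen in nearly every cDC1-like cell, 44 of 46 and 46 of 48, and stood at 434 and 493 CPM against 34.2 and 55.3 CPM. Ppt1, a lysosomal thioesterase, was at 756 and 782 CPM against 108 and 118 CPM. The septin Sept3 was at 159 CPM at 3 dpi and 51.8 CPM at 14 dpi, still far above the 8.16 and 3.75 CPM of the other cells. Smaller ratios were found for Flt3, the receptor for the growth factor of dendritic cells (135 and 188 CPM against 48.4 and 54.9 CPM), and for the adhesion and inhibitory molecules Dpp4 and Havcr2. The inhibitory receptor Btla was at 131 and 119 CPM against 22.8 and 28.3 CPM.

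**Figure D2:**
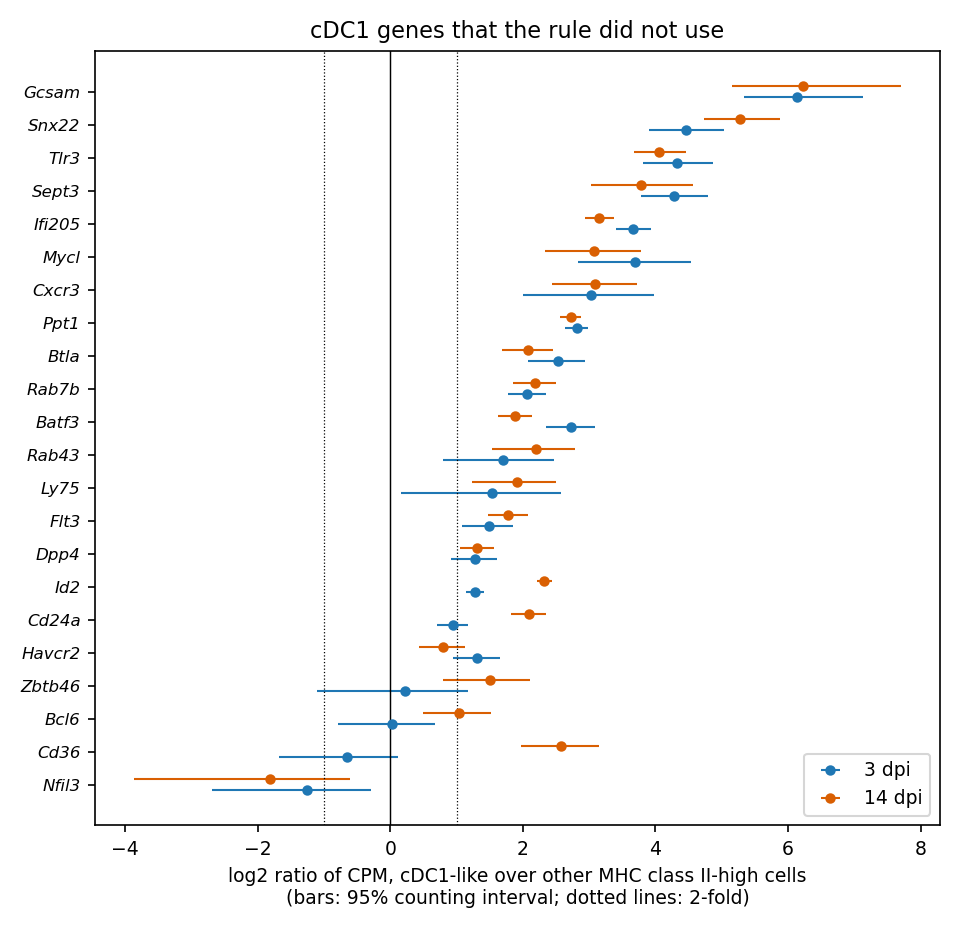
Log2 ratio of CPM in cDC1-like over other MHC class II-high cells (x) for 22 of the cDC1 genes outside the rule (y), at 3 dpi (blue) and 14 dpi (orange); bars are 95% counting intervals, the solid line is no difference and the dotted lines are 2-fold. Gcsam lies furthest right, at 6.14 and 6.23, and Nfil3 is the 1 gene left of the lower dotted line in both libraries.

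Some listed cDC1 genes did not follow. Plet1, a surface protein of mucosal dendritic cells, had 54 UMIs in 15 cDC1-like cells at 3 dpi and 0 at 14 dpi, at least 23.1-fold lower against a floor of 3 counts. It also had 0 UMIs at 14 dpi in the other MHC class II-high cells, in Cd79a+ cells and in microglia, after 21.6, 1.72 and 0.610 CPM at 3 dpi. The 2 matrices were written by different releases of the counting software (3.0.1 and 3.1.0), which cannot be told apart from time. Cd36, a scavenger receptor, was at 24.1 CPM at 3 dpi and 59.6 CPM at 14 dpi in cDC1-like cells, against 39.6 and 10.1 CPM in the other cells, where it is also a macrophage gene. Zbtb46, a factor of all conventional dendritic cells, was at 16.1 and 39.2 CPM against 14.5 and 14.1 CPM, a log2 ratio of 0.23 (−1.10 to 1.18) at 3 dpi. Cd8a, a marker of the cDC1 of lymphoid organs, had 3 and 0 UMIs.

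Beyond the lists, the genes with the largest ratios in both libraries included Plcb4, a phospholipase of G protein signalling, with log2 ratios of 4.46 and 4.04, and the nucleotide-sugar receptor P2ry14, with 3.08 and 3.74. Hepacam2, an adhesion molecule, had 3.02 and 3.25, and the retrotransposon-derived Rtl8a and Rtl8b had 2.79 and 3.79, and 3.20 and 2.90. Among those most clearly lower were Ebf1 and Cd79b, genes of B cells, with 0 UMIs at 3 dpi and 2 and 5 at 14 dpi. Lower too were the macrophage receptors Mrc1 (1 and 0 UMIs), Ptafr (1 and 2) and C5ar1 (3 and 2). B cells were part of the comparison cells, and Cd79a+ cells were kept out of the members by the rule.

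Among the transcription factors that divide the dendritic lineages, 20 were measured outside the rule, of which 3 were at least 2-fold higher and 3 lower in both libraries. Beside them, 2.90% of all genes were higher and 7.52% lower. Batf3, the partner of Irf8 in the cDC1 lineage, was at 185 and 259 CPM in cDC1-like cells against 28.1 and 70.0 CPM, log2 ratios of 2.72 (2.35 to 3.08) and 1.89 (1.63 to 2.14). Id2, which represses the plasmacytoid and lymphoid programs, was at 973 and 1335 CPM against 401 and 266 CPM. Mycl, a Myc family factor of dendritic cells, had log2 ratios of 3.69 and 3.08. Batf3, Id2 and Mycl were the 3 that were higher. Zeb2, a factor of monocytes and cDC2, was lower, at 66.3 and 69.1 CPM against 322 and 375 CPM. Irf4, the factor of cDC2 and of migration to lymph nodes, had 0 UMIs at 3 dpi (at least 2.73-fold lower than the other cells) and 4 at 14 dpi. Nfil3, which acts early in dendritic cell progenitors, had 7 and 4 UMIs. Spi1, the general myeloid factor PU.1, differed little, with log2 ratios of −0.33 and −0.22.

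When each cell was thinned to 2000 UMIs so that depth was equal, Batf3 had a UMI in 11 of 46 cDC1-like cells at 3 dpi (23.9%, interval 12.6% to 38.8%) and 22 of 48 at 14 dpi (45.8%, interval 31.4% to 60.8%). Without thinning the shares were 78.3% and 91.7%. In the other MHC class II-high cells the thinned shares were 5.96% and 13.3%, and in microglia 1.66% and 6.53%. The share was thus higher at 14 dpi in all 3 classes. With at least 3 of the cDC1 genes outside the rule in 2000 UMIs, the share of cells was 95.7% and 91.7% in cDC1-like cells, 27.1% and 17.6% in the other cells, and 19.0% and 7.54% in microglia.

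Genes of cross-presentation and MHC class I were mostly at the level of the other MHC class II-high cells. Of 26 genes of cross-presentation and MHC class I measured outside the rule, 2 were at least 2-fold higher in both libraries and 1 lower. These counts stand beside 2.90% of all genes higher and 7.52% lower. Psmb9, an immunoproteasome subunit, was at 360 and 615 CPM against 124 and 258 CPM, log2 ratios of 1.54 (1.30 to 1.77) and 1.25 (1.09 to 1.41). Rab43, a GTPase of cross-presentation in cDC1, had 1.71 (0.79 to 2.47) and 2.20 (1.54 to 2.79). The immunoproteasome activator Psme1 and the peptide transporter Tap1 were higher by less, with 1.26 and 0.86, and 0.96 and 0.55. MHC class I itself was no higher, with H2-K1 at −0.44 and −0.48 and B2m at −0.16 and −0.79. Cybb, the oxidase subunit of phagosomes, was lower, at 16.1 and 119 CPM against 196 and 613 CPM.

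For MHC class II, none of the 10 genes outside the rule was 2-fold higher in both libraries. Both groups were chosen for at least 1% of their UMIs in H2-Aa, H2-Ab1 and Cd74. Similar levels of the other MHC class II genes are therefore no independent result. H2-DMb1, which loads peptides, had log2 ratios of 0.74 and 0.59, and its inhibitor subunit H2-Ob 0.94 and 1.09. The transactivator Ciita was at 300 and 279 CPM against 226 and 201 CPM. Ctss, the protease that trims the invariant chain and is abundant in macrophages, was at 1443 and 989 CPM against 2720 and 3561 CPM. H2-Eb2 had 0 UMIs at both times, which puts it at least 1.54-fold and 1.43-fold below the other cells. The sensor Tlr3 was at 151 and 207 CPM in cDC1-like cells against 7.47 and 12.4 CPM in the other cells and 10.1 and 32.9 CPM in microglia, log2 ratios over the other MHC class II-high cells of 4.33 (3.81 to 4.87) and 4.06 (3.67 to 4.46). Of 19 innate sensors with enough UMIs in both libraries, Tlr3 was the only one at least 2-fold higher in both.

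Tlr11 and Tlr12, which sense a protozoan protein, had few UMIs (7 and 12, and 9 and 13), with log2 ratios of 4.31 and 3.39 for Tlr11 and 4.41 and 2.38 for Tlr12. The inhibitory lectin Clec12a was higher at 3 dpi, with 2.52 (2.18 to 2.85), and less so at 14 dpi, with 0.99 (0.69 to 1.26). In the other direction 10 sensors were at least 2-fold lower, and 8 of them also when genes at 0 were set to their bound, beside 7.52% of all genes lower. They included Tlr2 (22.1 and 11.0 CPM against 74.1 and 85.8 CPM), Tlr7 (3 and 4 UMIs) and the fungal receptors Clec4n, Clec4e and Clec4d. The same held for 9 of 16 dead-cell uptake genes outside the rule, none of which was higher. Among them were the receptors Axl (14.1 and 23.5 CPM against 36.9 and 125 CPM), Mertk (3 and 1 UMIs) and Lrp1 (60.3 and 20.4 CPM against 231 and 200 CPM). Many of these genes are typical of macrophages, whose list defined the limit and holds Mertk itself. Against comparison cells under the same macrophage limit the medians for dead-cell uptake were nearer to 0, at −0.56 and −0.87 (−1.26 and −2.02 before). For the sensors they were −0.66 and −0.43 (−1.07 and −0.62 before). With genes at 0 at their bound, the medians before were −1.26 and −1.59 for uptake and −0.94 and −0.42 for the sensors. The later medians were the same at the bound, so that the sensors were not nearer to 0 at 14 dpi.

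Of the chemokine receptors and other migration genes outside the rule, 1 of 15 was higher in both libraries and 5 were lower. Over all genes 2.90% were higher and 7.52% lower. Cxcr3, the receptor for Cxcl9 and Cxcl10, was at 30.2 and 58.1 CPM against 3.73 and 6.85 CPM, with a UMI in 11 and 25 cells and log2 ratios of 3.03 and 3.09. The 5 that were lower were Ccr1, Ccr6, Cx3cr1, Cxcr5 and S1pr1, and 3 of the 5 also with genes at 0 set to their bound. Cx3cr1 is in the microglia list, so that its low level follows from the choice of the cells. Itgb7, the integrin chain that pairs with Itgae, was at 288 and 257 CPM against 167 and 153 CPM. Ccr2, the receptor that draws monocytes and immature dendritic cells to inflamed tissue, was at 187 CPM in 31 of 46 cells at 3 dpi and 562 CPM in 45 of 48 cells at 14 dpi, against 271 and 588 CPM in the other cells.

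Mature dendritic cells switch on Ccr7, the receptor that leads them to lymph nodes, together with costimulatory genes. Cells with Ccr7 were excluded by the rule, and 2 cells at each time were left out for Ccr7 alone. Of 18 measured maturation genes outside the rule, 12 were at least 2-fold lower and none higher in the cDC1-like cells than in the other MHC class II-high cells, which keep the Ccr7+ cells that the rule removes from the members, beside 7.52% of all genes lower. Against the Cd209a+ cells described below, which also lack Ccr7, the medians of the list were nearer to 0, at −1.01 and −0.48. Fscn1, an actin-bundling protein of mature dendritic cells, had 1 UMI in each library. Of the 31 and 24 MHC class II-high cells with both Ccr7 and Fscn1, 4 and 9 were among the top doublet scores of their library. These cells were chosen for 2 genes of this list, which were therefore left out of the comparison with them. All of the 16 and 20 other measured genes were at least 2-fold lower in cDC1-like cells, with medians of −4.86 and −4.79 (−4.78 at 14 dpi with genes at 0 at their bound), where 13.7% and 12.4% of all genes measured were lower. Relb, the NF-kB subunit of maturation, was at 20.1 and 37.7 CPM in cDC1-like cells and at 499 and 796 CPM in the Ccr7+Fscn1+ cells. At least 3 genes of the list without Ccr7 and Fscn1 were seen in 8.70% and 6.25% of thinned cDC1-like cells, against 89.7% and 95.8% of Ccr7+Fscn1+ cells and 16.1% and 14.5% of all other MHC class II-high cells. In Cd209a+ cells the share for the whole list was 13.7% and 7.46%, so that low shares were not particular to the cDC1-like cells.

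The cDC1 genes also set the cDC1-like cells apart from the Ccr7+Fscn1+ cells, which can derive from either branch of conventional dendritic cells. The median log2 ratio of the cDC1 genes outside the rule was 2.22 and 2.12 against them, compared with 0.04 and 0.23 over all genes. Gcsam had 0 UMIs in the Ccr7+Fscn1+ cells at 3 dpi, at least 12.4-fold below the cDC1-like cells, and 3.87 CPM at 14 dpi. Batf3 and Flt3 lay closer in these groups, with Batf3 at 136 and 159 CPM and Flt3 at 132 and 112 CPM in the Ccr7+Fscn1+ cells. Among costimulatory and checkpoint genes none of 13 was higher in both libraries than in the other MHC class II-high cells. In both libraries 4 were lower, 3 of them also with genes at 0 at their bound, beside 7.52% of all genes lower. Cd80 had 2 and 1 UMIs and Cd40 had 1 and 9. Cd86 was at 117 and 127 CPM against 174 and 84.1 CPM.

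Against the 95 and 230 MHC class II-high cells with Cd209a, a lectin of cDC2 and monocyte-derived cells, the median log2 ratio of the cDC1 genes outside the rule was 2.21 and 2.97, compared with −0.03 and −0.03 over all genes. Gcsam had 0 UMIs in the Cd209a+ cells of both libraries, at least 44.9-fold and 66.6-fold below the cDC1-like cells. The cDC2 list, which contains Cd209a itself, had medians of −3.46 and −2.34 (−2.25 at 3 dpi with genes at 0 at their bound). Clec10a, a lectin of cDC2, was at 12.1 and 18.8 CPM in cDC1-like cells and 265 and 310 CPM in Cd209a+ cells. Sirpa, the inhibitory receptor that marks cDC2, was at 26.1 and 11.0 CPM against 168 and 201 CPM in all other MHC class II-high cells.

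**Figure D3:**
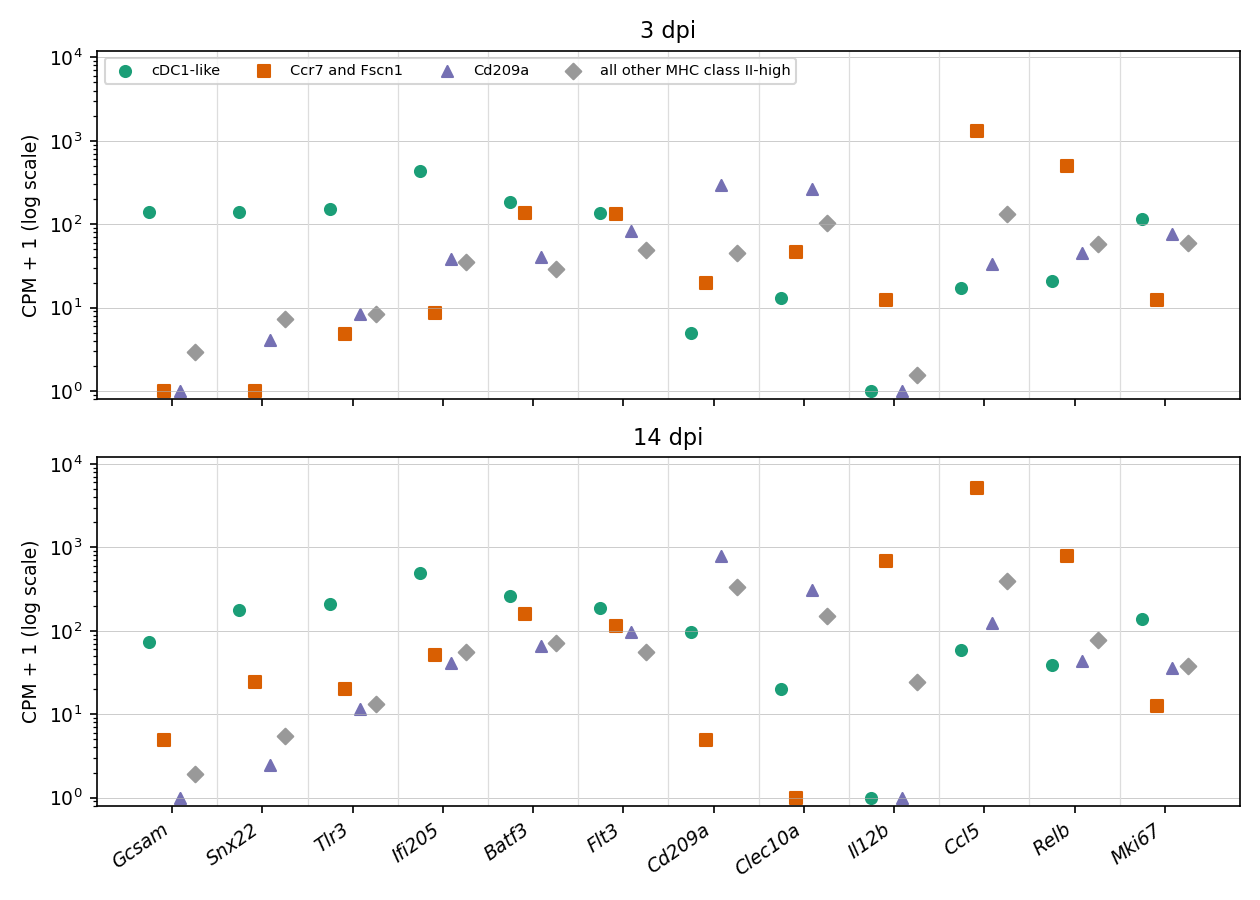
CPM plus 1 (y, log scale) of 12 genes (x) at 3 dpi (top) and 14 dpi (bottom) in cDC1-like cells (46 and 48 cells), MHC class II-high cells with Ccr7 and Fscn1 (31 and 24), MHC class II-high cells with Cd209a (95 and 230) and all other MHC class II-high cells (752 and 769, which include the 2 groups before). Gcsam, Snx22, Tlr3 and Ifi205 are highest in cDC1-like cells in both libraries, while Ccl5 and Relb are highest in the Ccr7+Fscn1+ cells; a point on the line at 1 is a gene with 0 UMIs.

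Some cytokine and chemokine genes were lower in cDC1-like cells. None of 20 measured was 2-fold higher than in the other MHC class II-high cells in both libraries and 7 were lower, 6 of them also at the bound, beside 7.52% of all genes lower. The 7 include Ccl2, Ccl6, Ccl9 and Cxcl2, which macrophages express. The median of the list was −1.50 and −1.37, and −0.88 and −0.64 against comparison cells under the same macrophage limit. With genes at 0 at their bound it was −0.89 and −0.86, and −0.85 and −0.64 under that limit, so that it hardly moved at 3 dpi. Il12b, the subunit of interleukin-12 that cDC1 can supply, had 0 UMIs in both libraries. In the Ccr7+Fscn1+ cells it was at 684 CPM at 14 dpi, at least 145-fold higher. Ccl5, which attracts T cells, was at 16.1 and 58.1 CPM in cDC1-like cells, 133 and 397 CPM in the other cells and 1326 and 5160 CPM in the Ccr7+Fscn1+ cells. Il1b was at 661 CPM at 3 dpi and 151 CPM at 14 dpi, against 1532 and 302 CPM. Cxcl9, which recruits Cxcr3+ T cells, had 0 UMIs at 3 dpi and 135 at 14 dpi in 6 cells, of which 1 held 60.0%. Cxcl10 at 14 dpi came almost wholly from 1 cell, which held 94.3% of its UMIs. Il18 was at 52.3 CPM at 3 dpi, above the 9.68 CPM of the other cells, and at 29.8 CPM at 14 dpi, beside 29.2 CPM.

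Summed over cells, proliferation genes were higher in the cDC1-like cells. The median cell showed little of this at 3 dpi and none of it at 14 dpi. Its share of UMIs in the list was 0.042% and 0.025%, beside 0.040% and 0.030% in the other MHC class II-high cells. Of 22 measured, 9 were at least 2-fold higher than in the other MHC class II-high cells in both libraries and none was lower. Over all genes 2.90% were higher and 7.52% lower. The medians of the list were 0.94 and 1.87. Mki67, present in cycling cells, was at 115 and 138 CPM against 58.5 and 36.6 CPM, and Top2a, a topoisomerase of dividing cells, at 149 and 199 CPM against 59.1 and 36.3 CPM. The whole list was at 1715 and 1913 CPM against 872 and 690 CPM, and at 1338 CPM at 14 dpi without the 2 cells among the top doublet scores. After thinning to 2000 UMIs, at least 3 genes of the list were found in 7 of 46 cDC1-like cells (15.2%, interval 6.34% to 28.9%) and 10 of 48 (20.8%, interval 10.5% to 35%), and without thinning in 56.5% and 43.8%. The shares were 7.06% and 3.16% in the other cells, and 3.16% and 3.51% in Cd209a+ cells. In all members they were 24.2% and 16.5%. Microglia went from 40.7% to 5.29%, and Cd79a+ cells were at 21.0% and 30.5%. When the markers of the rule were also counted after thinning, the shares of all members were lower at both times, as given under processing below. Deep cells reach 4 detected markers more readily, and the cycling cells were deeper (medians below). The part of depth in these shares was not tested.

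Among genes that the choice of the cells did not use, Batf3 was at 167 CPM in the 7 cycling cells at 3 dpi and 190 CPM in the 39 others, and at 256 and 260 CPM in the 10 and 38 at 14 dpi. Flt3 was at 158 and 128 CPM at 3 dpi and at 140 and 205 CPM at 14 dpi. Xcr1, a rule gene, was at 228 and 245 CPM and at 146 and 298 CPM. Median depth was 15521 UMIs in cycling cells and 10296 in the others at 3 dpi, and 15810 and 11975 at 14 dpi.

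The cDC1-like cells were split by detection of Xcr1, a rule gene, into 35 cells with and 11 without at 3 dpi and 33 and 15 at 14 dpi. A cell without Xcr1 was a member only if it had Clec9a. The rule thus shaped both parts, and the values below describe them and support nothing else. Tlr3 was at 183 CPM in the cells with Xcr1 and 43.2 CPM in those without at 3 dpi, and at 263 and 70.6 CPM at 14 dpi. The log2 ratios were 1.96 (0.80 to 3.75) and 1.85 (1.07 to 2.85). For Batf3 the ratios were −0.16 (−0.84 to 0.61) and −0.11 (−0.59 to 0.41). Itgae, which is also a rule gene, was at 223 and 147 CPM at 3 dpi, and at 360 and 27.2 CPM at 14 dpi. Snx22 had ratios of 0.51 (−0.36 to 1.58) and 1.86 (1.01 to 2.96). Of the 61 UMIs of Cd209a in cDC1-like cells at 14 dpi, 56 were in the 15 cells without Xcr1, and 52.5% were in 1 cell. These are comparisons of cells within a library and rest on few cells.

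Between 3 and 14 dpi, 547 of 5502 measured genes were at least 2-fold higher in the cDC1-like cells (9.94%) and 281 lower (5.11%), with a median log2 ratio of 0.14 over all genes. In the other MHC class II-high cells 9.80% of 11188 genes were higher and 5.43% lower, with a median of 0.15. The cDC1 genes outside the rule had a median of 0.33 in cDC1-like cells and the MHC class II list 0.02. Gcsam and Sept3 were lower at 14 dpi (log2 ratios of −0.96 and −1.60), and Batf3 (0.48), Flt3 (0.48) and Tlr3 (0.45) were slightly higher.

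Interferon response genes were higher at 14 dpi. Of 20 measured in the cDC1-like cells, 19 were at least 2-fold higher and none lower, and the median log2 ratio was 1.96. The summed level of the list was 1166 CPM at the earlier and 4000 CPM at the later time. Isg15, a ubiquitin-like antiviral protein, was at 92.5 CPM in 16 cells at 3 dpi and 383 CPM in 28 cells at 14 dpi, a log2 ratio of 2.04 (1.59 to 2.54). The antiviral effectors Rsad2 and Ifit3 had 3 and 0 UMIs at 3 dpi and 48 and 47 at 14 dpi, for Ifit3 at least 12.2-fold higher. Ifi203, of the same family as Ifi205, was at 90.5 and 469 CPM, while Ifi205 itself was at 434 and 493 CPM.

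The change was not confined to the cDC1-like cells. In the other MHC class II-high cells all 25 genes of the list were at least 2-fold higher at 14 dpi with a median of 2.05, and the medians were 2.04 in Cd79a+ cells and 2.06 in microglia. Irf7, the factor that amplifies interferon production, was at 119 and 278 CPM in cDC1-like cells and at 37.6 and 327 CPM in the other cells. Bst2, a membrane tether of viruses, was at 229 and 549 CPM in cDC1-like cells and 182 and 681 CPM in the others. At least 3 genes of the list were found in 26.1% of thinned cDC1-like cells at 3 dpi (12 of 46, interval 14.3% to 41.1%) and 64.6% at 14 dpi (31 of 48, interval 49.5% to 77.8%), and in 20.4% and 66.3% of the other cells. Per cell the share of UMIs in the list ran from 0.012% over a median of 0.092% to 0.516% at 3 dpi, and from 0.031% over 0.280% to 1.92% at 14 dpi, so that the cells of the libraries overlapped.

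**Figure D4:**
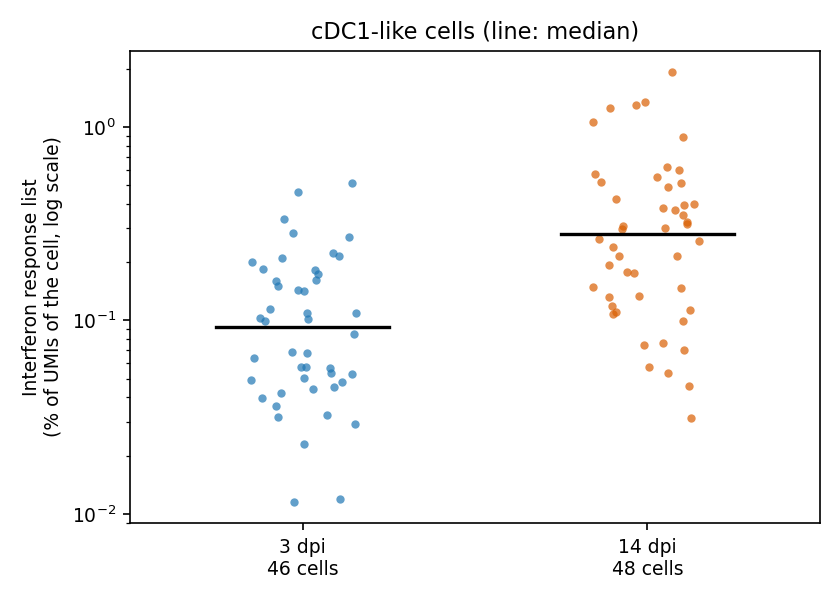
Share of UMIs in the 25 interferon response genes (y, %, log scale) in each cDC1-like cell at 3 dpi (46 cells) and 14 dpi (48 cells), with the median as a line; horizontal position within a group has no meaning. The medians are 0.092% and 0.280%, and the ranges overlap.

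The promoters of these genes were searched on both strands for the core of the interferon-stimulated response element, written as GAAA, any 2 bases and GAAA again, in the RefSeq windows of 300 bases (250 before to 50 after the start, build GRCm38.p6). Of all 32851 promoters 3.44% held a match. Of the interferon list 17 of 25 genes had an entry, and 10 of 19 promoters (52.6%) held it, from 9 genes. Of the cDC1 genes outside the rule 23 of 26 had an entry, and 3 of 28 promoters (10.7%) did, those of Dpp4, Ifi205 and Tlr11. None of the 6 promoters of the rule genes with an entry held it. Isg15 and Bst2 are shown as list genes with several matches that were higher at 14 dpi, and Ifi205 as a cDC1 gene with matches that was high in both libraries. Capitals mark the matches, which can overlap, 5′ to 3′ on the strand of the gene. A match describes the sequence and is no evidence of binding.
Isg15, chr4:156200769-156201068, minus strand, 3 matches: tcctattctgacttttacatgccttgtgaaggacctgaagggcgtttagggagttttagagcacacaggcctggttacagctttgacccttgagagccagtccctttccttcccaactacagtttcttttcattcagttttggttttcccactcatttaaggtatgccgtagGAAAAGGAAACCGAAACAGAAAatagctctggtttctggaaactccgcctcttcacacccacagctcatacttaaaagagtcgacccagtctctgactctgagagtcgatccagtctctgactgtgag
Bst2, chr8:71537423-71537722, minus strand, 2 matches: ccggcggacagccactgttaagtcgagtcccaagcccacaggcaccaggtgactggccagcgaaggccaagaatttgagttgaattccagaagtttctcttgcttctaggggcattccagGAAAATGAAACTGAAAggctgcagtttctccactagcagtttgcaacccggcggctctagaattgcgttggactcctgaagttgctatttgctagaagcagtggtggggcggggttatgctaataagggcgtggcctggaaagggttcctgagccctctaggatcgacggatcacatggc
Ifi205, chr1:174031706-174032005, minus strand, 2 matches: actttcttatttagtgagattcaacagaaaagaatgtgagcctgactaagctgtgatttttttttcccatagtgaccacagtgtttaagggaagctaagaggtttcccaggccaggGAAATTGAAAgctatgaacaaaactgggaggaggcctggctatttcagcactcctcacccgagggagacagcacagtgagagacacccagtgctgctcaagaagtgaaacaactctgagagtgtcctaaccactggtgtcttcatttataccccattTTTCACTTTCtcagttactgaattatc

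Some MHC class I genes were higher at 14 dpi as well. H2-D1 was at 629 CPM at 3 dpi and 1605 CPM at 14 dpi in cDC1-like cells, and at 796 and 2244 CPM in the other cells, while H2-K1, at 609 and 1051 CPM, stayed under 2-fold. In the cross-presentation list 5 of 26 genes were at least 2-fold higher and none lower, beside 9.94% and 5.11% of all genes. The median of the list was 0.43, and 0.51 in the other cells. Ccr2, described above, had a ratio of 1.58 (1.25 to 1.93), beside 1.12 in the other cells. Proliferation genes had a median of 0.00 over time in cDC1-like cells, −0.52 without the 2 of them among the top doublet scores, −0.82 in all members and −0.69 in the other MHC class II-high cells, and the differences were not tested.

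**Figure D5:**
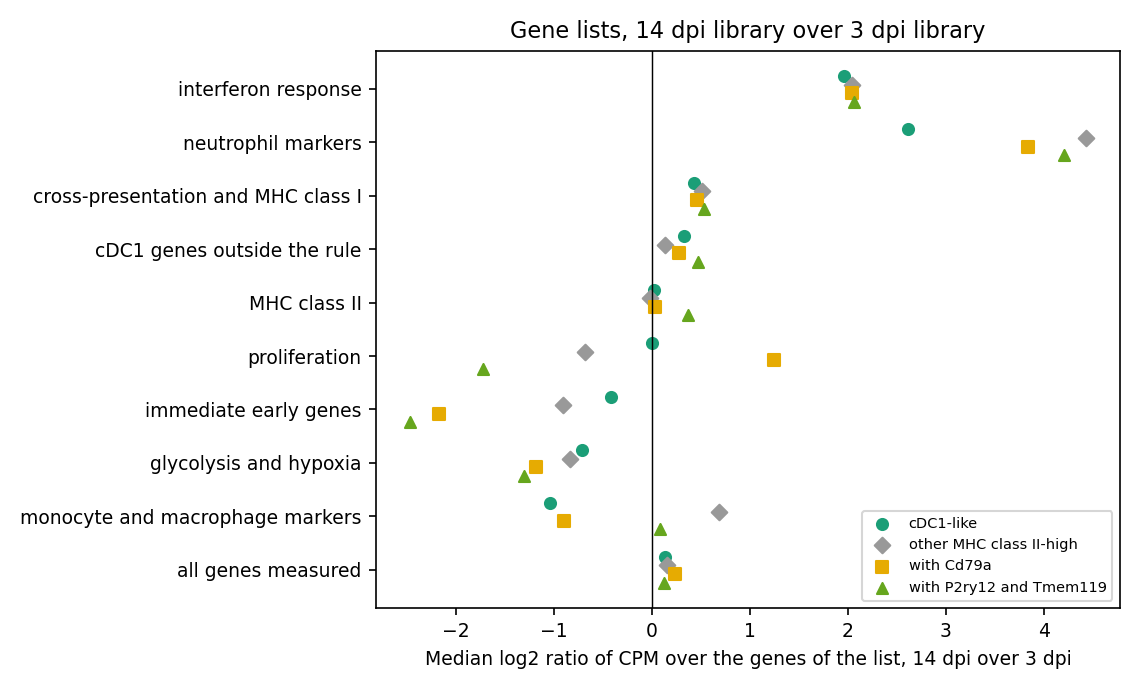
Median log2 ratio of CPM at 14 dpi over 3 dpi (x) of the genes of each list (y) in cDC1-like cells, other MHC class II-high cells, cells with Cd79a and cells with P2ry12 and Tmem119 (microglia); the vertical line is no difference. The interferon list lies between 1.96 and 2.06 in all 4 groups, and the proliferation list ranges from −1.73 in microglia to 1.25 in Cd79a+ cells.

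Among the genes most reduced between the libraries in cDC1-like cells were 3 that macrophages of injured tissue are known to express. Spp1 (osteopontin) had a UMI in all 46 cells at 3 dpi and was at 2559 CPM, against 97.3 CPM at 14 dpi. Hmox1, which degrades heme, went from 304 to 11.0 CPM, and the platelet chemokine Pf4 from 117 UMIs to 1. Spp1 was also lower at 14 dpi in Cd79a+ cells, at 20925 and 1353 CPM, and in microglia, at 25467 and 2704 CPM. The Cd79a+ cells held many macrophage transcripts themselves, with the monocyte and macrophage list at 63772 CPM at 3 dpi beside 3556 CPM for B cell markers. The whole monocyte and macrophage list, low by the choice of the cells, was at 7860 and 3418 CPM in cDC1-like cells, with 8 of 13 measured genes lower and 1 higher, and at 21749 and 39266 CPM in the other MHC class II-high cells. Over all members it went the other way, from 37631 to 57954 CPM, with a median log2 ratio of 0.20 against −1.04 in cDC1-like cells. The part of RNA from other cells in these values was not tested.

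Neutrophil genes were higher at 14 dpi in all 4 groups compared. All 6 measured genes of the list were at least 2-fold higher in cDC1-like cells, beside 9.94% of all genes. The list was at 360 CPM at 3 dpi and 1819 CPM at 14 dpi in cDC1-like cells, at 529 and 10987 CPM in the other MHC class II-high cells and at 1385 and 21501 CPM in Cd79a+ cells. Without the 2 cDC1-like cells among the top doublet scores at 14 dpi, the list was at 784 CPM there, and 4 of 5 measured genes were at least 2-fold higher. Its most abundant gene, S100a9, a calcium-binding protein of granulocytes, was at 159 and 876 CPM in cDC1-like cells, where 1 cell, among the top doublet scores, held 63.6% of its UMIs at 14 dpi. Camp, an antimicrobial peptide of young neutrophils, had 1 UMI at 3 dpi and 39 in 25 cells at 14 dpi. Markers of plasmacytoid dendritic cells were also higher, with all 6 measured genes at least 2-fold, beside 9.94% of all genes. However, Ly6d had 82.1% and Cox6a2 63.6% of their UMIs at 14 dpi in 1 cell each. The rise was not particular to the cDC1-like cells. The median log2 ratio of this list was 1.93 in them, 1.90 in the other MHC class II-high cells, 0.86 in Cd79a+ cells and 1.47 in microglia.

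Some glycolysis genes were lower at 14 dpi. Of 16 glycolysis and hypoxia genes measured none was at least 2-fold higher and 3 were lower, beside 9.94% and 5.11% of all genes, with a median of −0.72 and of −0.84 in the other cells. The 3 were the glycolytic enzymes Aldoa (384 and 155 CPM), Tpi1 (143 and 65.9 CPM) and Pkm (384 and 160 CPM), while Gapdh, at 1186 and 640 CPM, stayed under 2-fold. Of 15 cytokine and chemokine genes measured over time, 4 were at least 2-fold higher at 14 dpi and 6 lower, with a median of −0.71. Tnf had 17 UMIs at 3 dpi and 0 at 14 dpi, at least 7.26-fold lower, and Il1b had a log2 ratio of −2.13 (−2.48 to −1.80), beside −2.34 in the other cells. Ifitm1, an interferon-induced membrane protein, went against the interferon list, with 2183 CPM in 34 cells at 3 dpi and 177 CPM in 12 cells at 14 dpi. It was at 4319 and 610 CPM in the other MHC class II-high cells. Immediate early genes, which tissue dissociation can induce and actinomycin D is used to hold down, had a median of −0.42 in cDC1-like cells, −0.91 in the other cells and −2.47 in microglia, and the difference was not tested.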

How the data were processed

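CD45+ cells of 4 libraries were profiled with droplet single-cell RNA-seq (3′ chemistry). The matrices the authors deposited hold UMI counts, a row for each gene and a column for each barcode, made with Cell Ranger on mm10, with no normalization. The matrix headers name software 3.0.1 (standard sham, 3 dpi) and 3.1.0 (sham with actinomycin D, 14 dpi). No column of another sample was present (0).

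Counts were summed over the cells of a group and divided by the group's total to give CPM. Log2 ratios had 0.5 UMIs added to each sum, with exact conditional Poisson intervals, and shares had exact Clopper-Pearson intervals, both at 95% and for counting error only. Genes were measured with at least 20 UMIs over both groups, a rule of size of 2-fold (log2 of 1) named changes, and genes at 0 were bounded with a floor of 3 counts per group. With 1 library per group no test was run. Thinned cells had 2000 UMIs, and shallower cells were left out. Doublets were scored with Scrublet in scanpy 1.11.5 at an expected 0.8% per 1000 cells and were not removed.

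The members and gene lists were chosen with earlier results of these data known, and the division into cDC1-like and other members was made after seeing the data. Beyond the lists, the genes eligible for naming were the 12 highest and 12 lowest by the log2 ratio nearer to 0 of the 3 dpi and 14 dpi comparisons with the other cells, with at least 20 UMIs (observed, or expected for lower genes) in each library, and the 12 highest and 12 lowest between times with at least 40 UMIs in all and a UMI in at least 10 cells of the higher library, without sex-linked, mitochondrial, haemoglobin, ribosomal and immunoglobulin genes and the rule genes. Intervals were tested on simulated data. Promoter sequences were those of RefSeq, GRCm38.p6, and were searched for a motif chosen from general knowledge. Python 3.11.15, scipy 1.17.1, R 4.3.3 and edgeR 4.0.16 (TMM factors only) were used. Some genes of the lists are counted but not reported singly here.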

Additional observations from a re-analysis of the deposited data

Results flagged for a closer look

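Among the genes of the lists and the named genes, 7 had a difference between cDC1-like and other MHC class II-high cells that pointed one way at 3 dpi and the other way at 14 dpi, with counting intervals that left out 0 at both times. Cd36, whose interval at 3 dpi (−1.68 to 0.11) held 0, is not among them. With 1 library per time the difference between the times was not tested, and no replicate stands behind any of these values. For Cd86, a costimulatory ligand, the log2 ratio was −0.57 at 3 dpi and 0.60 at 14 dpi, a change of 1.17. For Irf7 it was 1.67 and −0.23, a change of −1.90, and for Bst2 0.34 and −0.31, a change of −0.65. Cxcl10 had −1.66 and 1.22, a change of 2.87, and 1 cell held 94.3% of its UMIs at 14 dpi. The immediate early genes Fos and Egr1 had −0.56 and 0.38, and −0.82 and 0.93, changes of 0.95 and 1.75. Runx2, a factor of plasmacytoid dendritic cells, had −1.36 and 1.01, a change of 2.37, and 1 cell held 35.5% of its UMIs at 14 dpi.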

How the results depend on the processing

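No paired analysis was possible because each group is 1 library and the result comes from no test. All values here are for all members of the rule unless cDC1-like cells are named. The 4 medians printed below (cDC1 genes at each time, interferon and immediate early genes over time) kept their sign under the alternatives run. Some trends over time turned between all members and cDC1-like cells. The share of passing cells did (0.693% and 0.901% against 0.483% and 0.441%). So did the medians over time of the macrophage list (0.20 against −1.04), the microglia list (1.59 against −0.11) and the cDC2 list (0.41 against −0.01). The share of cycling cells turned with at least 3 genes in 2000 UMIs (24.2% and 16.5% against 15.2% and 20.8%), and also with at least 5 genes. With at least 3 genes in 1000 UMIs it did not turn, and the cDC1-like share was 13.0% and 10.4%. Nor did it turn without thinning, where that share was 56.5% and 43.8%. Of the 16 main values 151 of 186 planned recalculations and 12 of 22 added ones stayed within the counting error or 1.5 times the count. Those that moved follow, with 3 dpi before 14 dpi.

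The number of members, 66 and 98, was 43 and 61 with at least 5 markers, 26 and 46 with both Xcr1 and Clec9a, 20 and 22 when the markers were counted after thinning to 2000 UMIs, and 48 cDC1-like cells at 14 dpi. Genes 2-fold lower than in the other cells numbered 664 and 765. They were 1445 and 1183 with both receptors, 1471 and 2040 after thinning, 1126 and 1435 with no minimum of UMIs, 1045 at 3 dpi with the mean of CPM per cell, 1512 and 1710 in cDC1-like cells, and 1181 and 1191 in cDC1-like cells against comparison cells under the same macrophage limit. Genes 2-fold higher, 650 and 537, were 1228 and 869 after thinning and 3396 and 1674 with no minimum. The median of the cDC1 genes outside the rule, 1.15 and 1.31, was 2.16 at 14 dpi after thinning and 1.89 and 2.20 in cDC1-like cells.

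Between times, 799 genes were 2-fold higher and 524 lower. The counts were 278 and 243 when markers were counted after thinning, 1746 and 1910 with no minimum, and 281 lower in cDC1-like cells. The interferon median of 2.26 was 1.52 after thinning of the markers. The immediate early median of −1.50 was −0.81 with both receptors, −0.57 after thinning and −0.42 in cDC1-like cells. Cycling members, 24.2% and 16.5%, were 10% and 4.55% after thinning of the markers, 12.1% at 3 dpi with at least 5 genes, and 9.18% at 14 dpi in 1000 UMIs. Members with Batf3, 18.2% and 30.9%, were 34.6% at 3 dpi with both receptors, 40% and 59.1% after thinning of the markers, 4.55% at 3 dpi in 1000 UMIs, 66.7% and 74.5% without thinning, and 45.8% at 14 dpi in cDC1-like cells. The cause of these shifts was not tested, except that no minimum admits genes with few UMIs and stricter rules keep fewer cells. The number of cells limits all values.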

Other observations

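Other lists measured in cDC1-like against other MHC class II-high cells gave few genes that were at least 2-fold higher in both libraries. Over all genes 2.90% were higher and 7.52% lower in both. For interferon response genes 1 of 24 was higher, Ifi44, and 5 were lower, the antiviral genes Ifit1, Ifit3, Oas2, Oasl2 and Rtp4. None of 22 immediate early genes was higher and 4 were lower, Fosl2, Gadd45b, Jun and Nfkbiz. Of 21 glycolysis and hypoxia genes none was higher and 4 were lower, 3 of them also with genes at 0 at their bound, among them Hif1a, the factor of the hypoxia response, and its target Vegfa.

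Marker lists of other cell types had no gene that was higher in both libraries, where 2.90% of all genes were higher and 7.52% lower. Lower in both were 17 of 17 monocyte and macrophage genes (16 with genes at 0 at their bound) and 3 of 9 microglia genes, lists whose level the choice of the cells limited, 9 of 9 B cell genes, 9 of 11 cDC2 genes (8 at the bound), 4 of 10 T and NK cell genes, 3 of 11 neutrophil genes (2 at the bound) and 2 of 8 plasmacytoid dendritic cell genes. The rule kept cells with Cd79a or Cd3e out of the members but not out of the comparison cells. The counts for B cell and T cell genes therefore also describe the choice.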
